A study of Mus musculus with 63 samples.

Results

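Transcripts of the antibody constant regions and of the J chain were followed through a bulk RNA-sequencing data set of mouse peritoneal macrophages. The genes are Ighm, Ighd, Ighg1, Ighg2b, Ighg2c, Ighg3 and Igha, which encode the constant parts of the IgM, IgD, IgG and IgA heavy chains, Igkc, which encodes the constant part of the kappa light chain, and Jchain. They were chosen by name, as 9 of the 56748 genes in the count table, each matched to 1 Ensembl identifier. All 9 passed the filter on low counts. Ighg1 passed it only through libraries with the interferon-γ label described below, since no other library had more than 9 reads of it. Ighe, the constant region of IgE, had 8 reads in all over the 63 libraries and was not tested.

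An antibody is built of heavy and light chains, and a B cell makes each heavy chain by joining a rearranged variable region to 1 constant region. Resting B cells splice the same variable region to Ighm or to Ighd, so IgM and IgD stand together on their surface. After activation, class switching moves the variable region to a constant gene farther along the locus, which gives IgG or IgA. The J chain links IgM and IgA units into the polymers that are secreted, and its gene is strongly expressed in antibody-secreting cells. The peritoneal cavity holds B-1 cells, which secrete IgM without prior immunisation, beside B-2 cells, which carry more IgD. Antibody genes are textbook products of B lineage cells and not of macrophages.

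The heavy chain constant genes lie in a row on mouse chromosome 12 in the order Ighm, Ighd, Ighg3, Ighg1, Ighg2b, Ighg2c, Ighe and Igha, Igkc lies on chromosome 6 and Jchain on chromosome 5. Because the IgG genes are related copies, the first 60 bases of their annotated transcripts (GENCODE M21) are set out here against Ighg2b, with those of Ighm and Igha as more distant relatives. Capitals mark a base that differs from the one at the same place in Ighg2b.
Ighg2b: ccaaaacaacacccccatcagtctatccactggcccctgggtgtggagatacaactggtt
Ighg2c: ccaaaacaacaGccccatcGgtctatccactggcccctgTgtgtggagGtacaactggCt
Ighg1: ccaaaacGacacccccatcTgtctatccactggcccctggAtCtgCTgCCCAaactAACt
Ighg3: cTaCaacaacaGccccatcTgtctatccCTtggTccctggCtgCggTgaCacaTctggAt
Ighm: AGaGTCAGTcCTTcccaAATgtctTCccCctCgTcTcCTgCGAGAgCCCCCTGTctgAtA
Igha: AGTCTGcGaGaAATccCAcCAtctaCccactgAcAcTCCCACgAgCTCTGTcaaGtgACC
Over these 60 bases, Ighg2c matched Ighg2b at 55 positions, Ighg1 and Ighg3 at 47 each, Igha at 25 and Ighm at 23. Across whole transcripts no stretch of 100 bases was shared by any pair of the 9 genes. The longest shared run, 88 bases in the part that encodes the membrane anchor, joined Ighg2b and Ighg3, and is shown as the longest stretch without a base that tells them apart.
Shared by Ighg2b and Ighg3: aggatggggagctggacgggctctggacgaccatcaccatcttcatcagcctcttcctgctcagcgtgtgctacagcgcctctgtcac
Ighg2b and Ighg2c shared a run of 78 bases. Reads were sequenced as pairs of 150 bases per the labels, which is longer than any shared run. A full-length read within these transcripts therefore reaches bases that differ, and only shortened reads could match several genes exactly. How the authors counted reads that match several genes is not given in the sources used here. Counts of the IgG genes against each other are uncertain to that extent.

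The cells came from mice with the R1441C change knocked into Lrrk2, which encodes leucine-rich repeat kinase 2, or from wild-type B6 mice, of both sexes, labelled old (18 to 21 months) or young (2 to 3 months). All animals had received 3% thioglycollate broth 72 h before collection and buprenorphine against pain, and cells that did not adhere were washed off. The adherent cells were then labelled as treated with 100 U of interferon-γ (IFN-γ) for 18 h or as untreated, which the protocol gives as water alone. With the IFN-γ label there were 5 libraries from old and 2 from young knock-in females, 5 and 3 from knock-in males, 5 and 3 from wild-type females, and 5 and 5 from wild-type males. With the untreated label there were 5 and 5 from old and young knock-in females, 3 and 3 from knock-in males, 5 and 3 from wild-type females, and 3 and 3 from wild-type males. Counts per library, in units of 1 M reads, summed to between 73.6 and 106.6 (median 98.2). The study asked what the variant does to macrophage functions in either sex and at either age. Nothing in the labels says that libraries of a group came from separate animals, and p-values then measure only the spread between these libraries.

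Several checks of the labels bear on every comparison. The 10 macrophage genes listed for this purpose summed to 20126 to 33792 CPM (IFN-γ label) and 19107 to 38817 CPM (untreated label), so macrophage transcripts were present in every library. Gbp2, an IFN-γ-induced GTPase, ranged over 4526 to 6874 CPM with the old label and 13.8 to 965 CPM with the young label, and so followed the age label and not the treatment label. Cd79a, a signalling chain of the B cell receptor, had 4.93 to 384 CPM among IFN-γ-labelled and 1.34 to 12.9 CPM among untreated-labelled libraries. Every age or treatment comparison is therefore one between labels. Whether the age and treatment labels are exchanged was not settled here, and if they are, each IFN-γ label comparison is one of age and each age label comparison one of treatment. Knock-in old IFN-γ-labelled females 4 and 5 lacked the female transcript Xist (1.62 and 1.51 CPM). Of the male transcript Ddx3y they had 0.624 and 0.601 CPM with TMM factors, against 33.9 to 67.9 CPM in male-labelled libraries. They are the 2 libraries called against their sex label below, by Xist alone, and held little of either transcript. In all, 9 libraries held transcripts of both sexes or went against their sex label. Runs without libraries with transcripts of both sexes leave out all 9, these 2 included. The 3 knock-in old untreated males carry an IFN-γ entry in another label field and were grouped by their description. The values of Gbp2, Cd79a and Xist in these checks are scaled by library size alone, without TMM factors.

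Libraries labelled IFN-γ also shared patterns of V-segment use. Over 192 immunoglobulin V segments, which differ in use between the B cell repertoires of animals, 25 of the 65 pairs alike in genotype and sex but differing in the age label had a Pearson r above 0.7 (highest 0.995). None of the 406 pairs that differed in genotype or sex did, and their highest r was 0.623. With this threshold, chosen after seeing the data, the 33 IFN-γ-labelled libraries fell into 22 sets within groups and into 13 sets when the age label was ignored. Results are given with and without joining these sets where it changes them. Untreated-labelled libraries had 705 to 2534 V-segment counts and were not compared or joined. Whether some of them are near-identical was not checked, so each counts as separate in every result.

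IgM transcripts dominated every library. Ighm was the highest and Ighd the second of the 7 heavy chain genes in all 63 libraries, by FPKM, which scales counts for transcript length. Ighm ran from 6.63 over a median of 20.5 to 808 FPKM and Ighd from 0.195 over 1.38 to 63.9 FPKM. The other 5 heavy chain genes were scarce. Ighg3 ran from 0.0109 over a median of 0.127 to 2.78 FPKM, on 3 to 697 reads, and Ighg2b from 0.00373 over 0.052 to 1.15 FPKM, on 1 to 269 reads. Igha reached 267 reads and had none in 7 libraries, Ighg2c reached 76 and had none in 21, and Ighg1 reached 35 and had none in 36. Igkc ran from 5.05 over a median of 17.7 to 404 FPKM, and Jchain from 0.0648 over 0.477 to 11 FPKM. In bulk RNA, fewer cells of a type and less RNA per cell cannot be told apart, and this holds for each level given here.

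For Ighm, Ighd, Igkc and Jchain the order of the 16 groups was led by the IFN-γ label. Mean Ighm was highest in wild-type IFN-γ-labelled females, at 374 ± 381 FPKM in young (SD, n = 3) and 287 ± 222 FPKM in old (n = 5), and lowest in wild-type old untreated males, at 8.24 ± 0.632 FPKM (n = 3). The 8 IFN-γ-labelled groups took the first 8 places for each of Ighm, Ighd, Igkc and Jchain. For the IgG genes and Igha, untreated-labelled groups also stood among the first 8. Knock-in old untreated females took place 4 for Ighg3 and place 5 for Ighg2b, Ighg2c and Ighg1, and knock-in old untreated males place 8 for Igha. Between neighbours in the order of group means, the ranges stood apart in only 1 place for each of Ighm, Ighd and Igkc, between the eighth and the ninth group, and in none for Jchain. The spread within groups was wide with the IFN-γ label. Knock-in old females had 186, 196, 115, 17.4 and 17.5 FPKM of Ighm, and knock-in old males had 240, 89.2, 20, 166 and 22.6 FPKM.

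**Figure D1:**
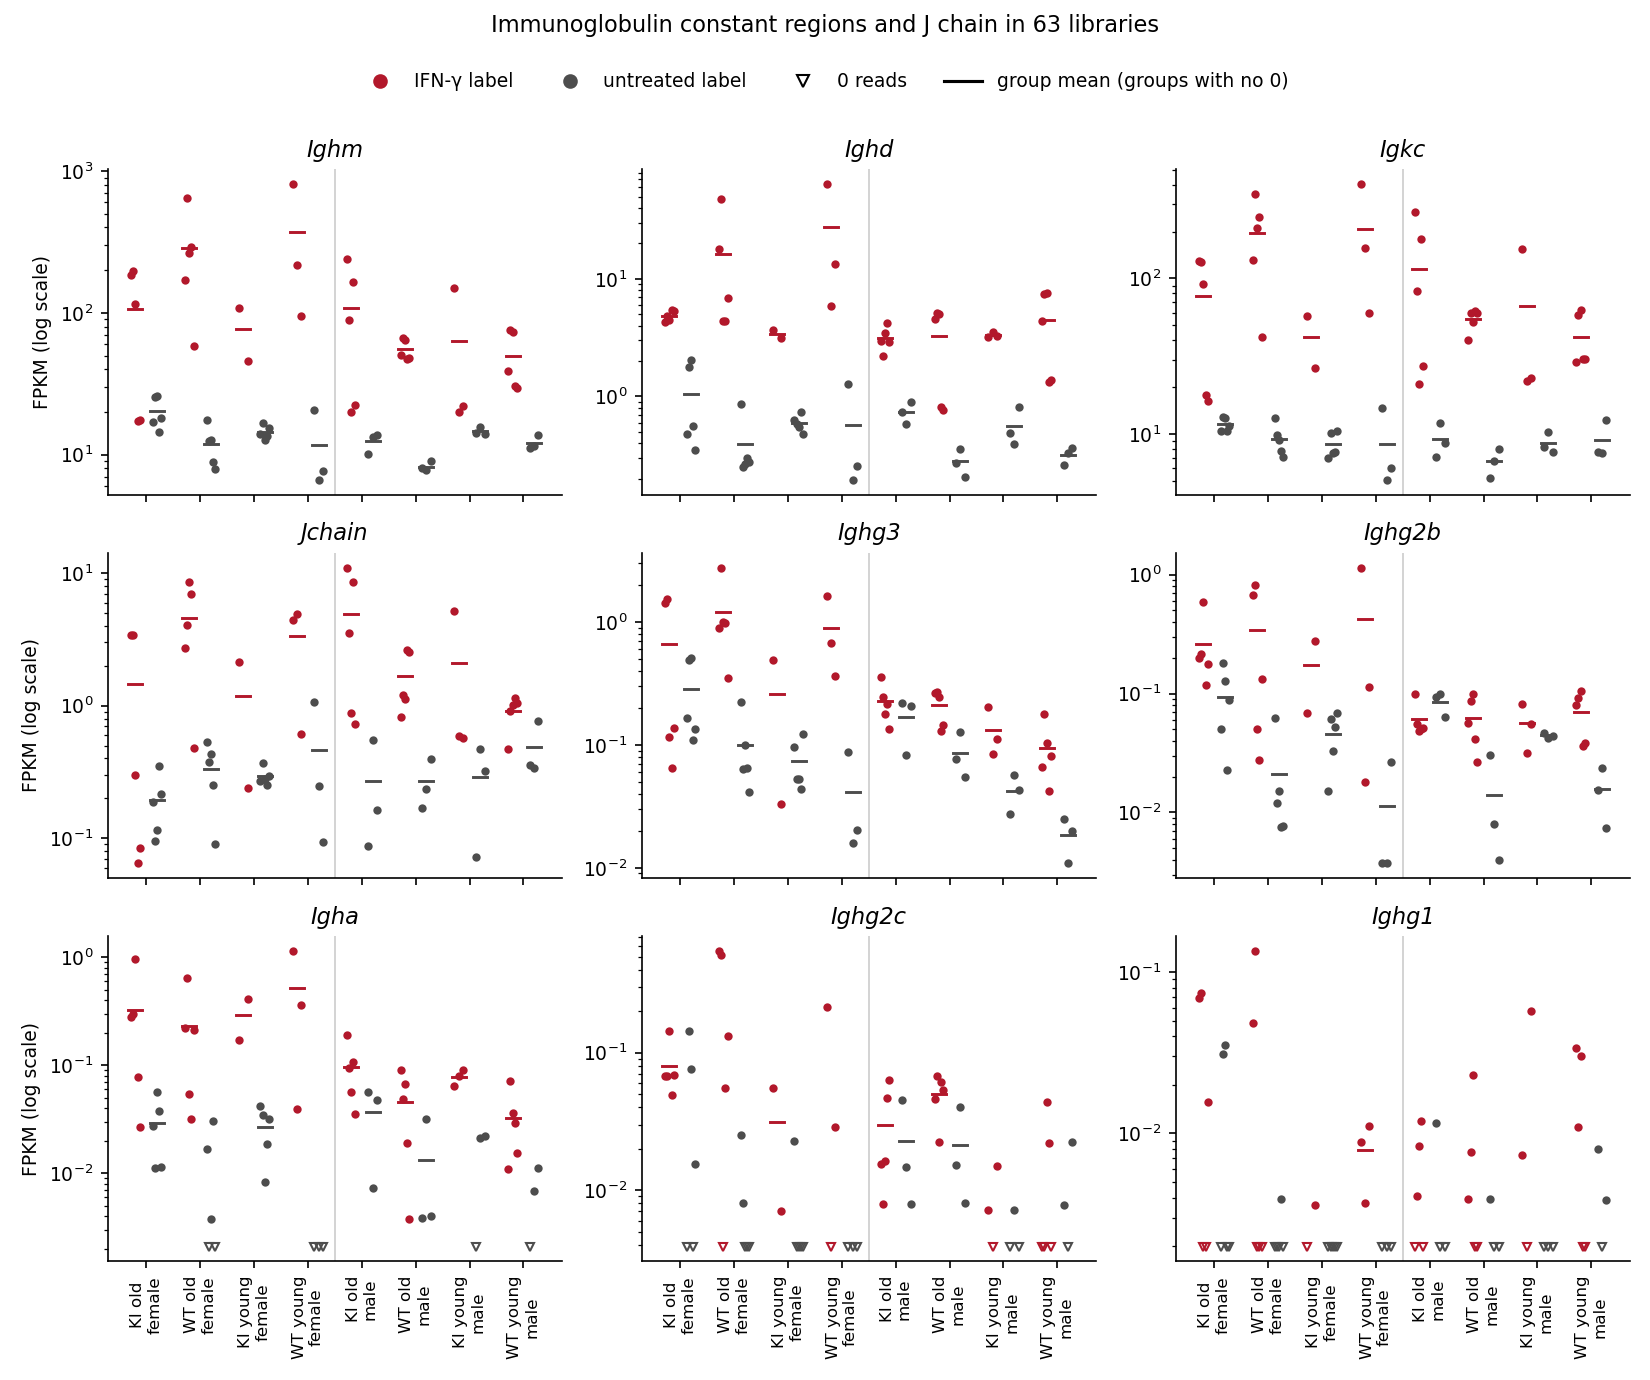
Level of each gene in every library (FPKM, log axis) by genotype (KI, knock-in; WT, wild-type), age label and sex, with the IFN-γ label in red to the left of the untreated label in grey; open triangles mark libraries with no read and lines are means of groups without a 0. Ighm, Ighd and Igkc with the IFN-γ label stand above the untreated label in most strata, and Ighg1 and Ighg2c rest on few reads.

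With the IFN-γ label, antibody transcripts were higher in both genotypes. In knock-in, 5 of the 9 genes rose, against 3.35% of all 22147 tested genes, and in wild-type all 9 rose, against 15.4% of all genes, with no gene lower in either (edgeR quasi-likelihood test, Benjamini-Hochberg adjustment over all tested genes, called at 0.05). The percentages of all genes called lower were 4.42% in knock-in and 15.9% in wild-type. Ighg1 entered the tests only through IFN-γ-labelled libraries, so its rise with that label is no separate support. It was higher with that label in 57.9% of the wild-type pairs of libraries. The median log2 change of the 9 was 2.35 in knock-in and 3.31 in wild-type, while that of all tested genes was -0.01 in each.

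Ighm, the IgM heavy chain, had 33 to 452 CPM with the IFN-γ label in knock-in (median 169, n = 15), against 19.3 to 47.6 CPM with the untreated label (median 27.6, n = 16). In wild-type it had 55.8 to 1469 CPM with the IFN-γ label (median 133, n = 18), against 12.8 to 39.1 CPM with the untreated label (median 19.4, n = 14). The labels overlapped in knock-in and did not overlap in wild-type. The log2 change was 2.51 ± 0.35 in knock-in (SE, edgeR adjusted p = 2.57e-06) and 3.56 ± 0.38 in wild-type (edgeR adjusted p = 4.57e-10).

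Ighd, the IgD heavy chain of unswitched B cells, had 4.25 to 10.5 CPM with the IFN-γ label in knock-in, against 0.68 to 3.79 CPM with the untreated label, and these did not overlap. In wild-type it had 1.46 to 117 CPM with the IFN-γ label, against 0.378 to 2.45 CPM with the untreated label, which overlapped. Knock-in IFN-γ-labelled libraries thus kept to a narrower range of Ighd than of Ighm. The log2 change was 2.35 ± 0.36 in knock-in (edgeR adjusted p = 1.38e-05) and 4.54 ± 0.40 in wild-type (edgeR adjusted p = 4.1e-12).

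Igkc, the kappa light chain, did not overlap between the labels in either genotype. It had 8.79 to 142 CPM with the IFN-γ label, against 3.71 to 6.62 CPM with the untreated label, in knock-in. In wild-type it had 15.2 to 207 CPM with the IFN-γ label, against 2.74 to 7.9 CPM with the untreated label. The log2 change was 2.90 ± 0.34 in knock-in and 3.53 ± 0.35 in wild-type (edgeR adjusted p = 2.18e-08 and 1.14e-10). Jchain, the linker of secreted IgM and IgA, overlapped between the labels in both genotypes, with 0.164 to 27.8 CPM under the IFN-γ label and 0.184 to 1.42 CPM under the untreated label in knock-in, and 1.17 to 21.8 CPM and 0.236 to 2.7 CPM under the same labels in wild-type. Its log2 change was 2.99 ± 0.51 in knock-in and 2.51 ± 0.48 in wild-type (edgeR adjusted p = 6.62e-05 and 7.2e-05).

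Igha, the IgA heavy chain, was the fifth gene to rise in knock-in, with 0.0725 to 2.55 CPM with the IFN-γ label against 0 to 0.152 CPM with the untreated label and a log2 change of 2.65 ± 0.52 (edgeR adjusted p = 4.41e-04). In wild-type its fitted log2 change of 4.62 rests partly on young untreated females, which had no Igha read in any of 3 libraries. Against a floor of 3 reads over that group, Igha was at least 123-fold higher with the IFN-γ label there, pooled over libraries. Of the 378 pooled reads, wild-type young IFN-γ females 1, 2 and 5 had 267, 11 and 100, so female 1 carries most of that value. With such strata at their bound, the mean log2 change over the 4 wild-type strata was 3.91. The IgG genes rose in wild-type, with log2 changes of 2.88 for Ighg3, 3.31 for Ighg2b, 3.23 for Ighg2c and 3.18 for Ighg1, the last 2 again with strata at 0 (2.54 and 2.69 at the bound). With genes at their bound, the median of the 9 was 2.35 in knock-in and 3.34 in wild-type. In knock-in these 4 did not pass the test, with log2 changes of 1.28 for Ighg3, 0.81 for Ighg2b, 1.22 for Ighg2c and 2.31 for Ighg1 (1.35 for Ighg1 over 3 strata with young males at their bound, both labels being at or under the floor in young females) and edgeR adjusted p from 0.0736 to 0.495. All 9 genes passed in wild-type after joining across age labels, while 6 did after leaving out the libraries with transcripts of both sexes, where Ighg1, Ighg2b and Ighg2c were lost. Ighg1 was also lost without wild-type young IFN-γ female 5 or wild-type old IFN-γ male 3.

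By stratum, more genes passed in females than in males of each genotype and age label. Among knock-in, the IFN-γ label raised 5 genes in old females (2.77% of all genes called higher) and 4 in young females (11.8%), 1 in old males (0.117%, Igkc) and 0 in young males (0.0497%). In young knock-in males 5 of the 9 had an unadjusted p under 0.05 by edgeR, a threshold whose rate over all genes is not given. Among wild-type, it raised 9 genes in old females (9.13%) and 7 in young females (10%), 3 in old males (1.08%: Ighm, Ighd and Igkc) and 1 in young males (0.379%: Ighd). The number of called genes per stratum is not a test of a difference between strata.

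**Figure D2:**
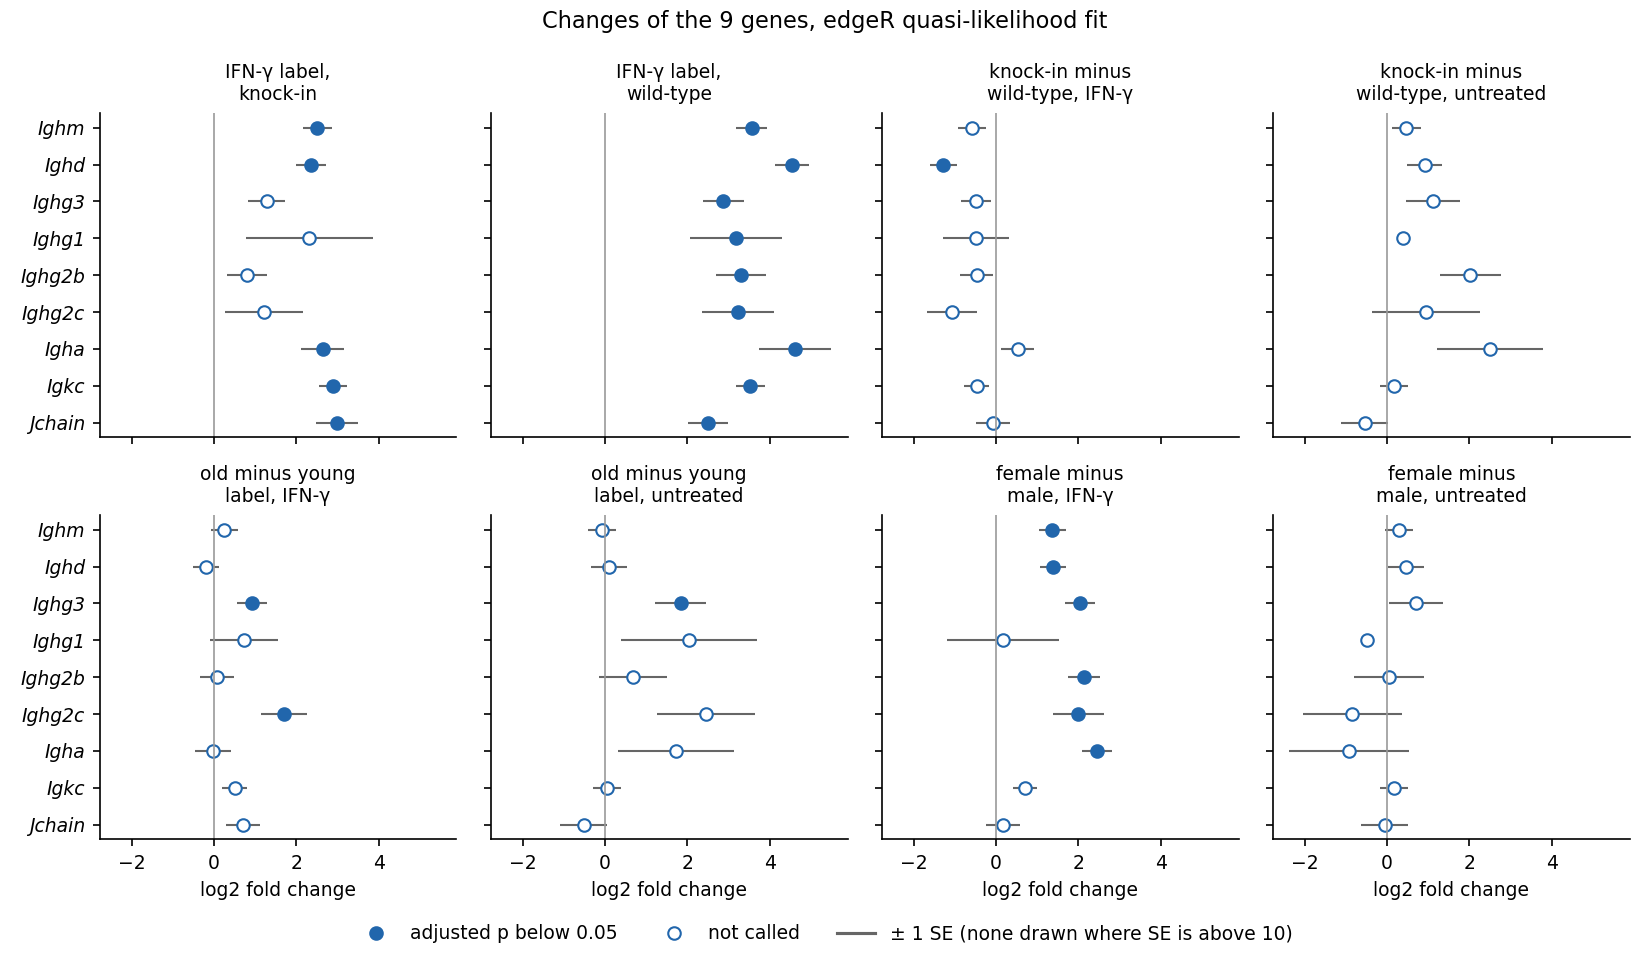
Log2 fold change of each gene (points, with ± 1 SE) in 8 comparisons of the edgeR fit; filled points passed an adjusted p of 0.05. All 9 points are filled for the IFN-γ label in wild-type and 5 in knock-in, and genotype and sex in untreated-labelled libraries have none; values of Ighg1, Ighg2c and Igha rest partly on groups with no read.

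Other genes of B cells moved with the antibody genes. The counts below stand against 3.35% of all genes called higher and 4.42% lower in knock-in. In wild-type these rates were 15.4% and 15.9%. Among the other constant regions, Iglc1, Iglc2 and Iglc3, of the lambda light chains, all rose in both genotypes, with log2 changes of 1.60, 1.90 and 2.35 in knock-in and 3.24, 3.61 and 3.95 in wild-type. Of 18 genes of the B cell receptor and its signalling, 7 rose and 0 fell in knock-in and 13 rose and 2 fell in wild-type, led by Cd79a (2.18 and 4.02). Of 10 B cell transcription factors, 7 rose and 0 fell in knock-in and 9 rose and 1 fell in wild-type, among them Pax5, which keeps B cell identity (2.13 and 3.96). Of 8 genes of follicular B cells, 6 rose in knock-in and 8 in wild-type, among them Tnfrsf13c, the receptor for the survival factor BAFF (2.39 and 3.95).

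Of 13 genes of B-1 and marginal zone B cells, 6 rose and 0 fell in knock-in and 9 rose and 2 fell in wild-type, among them Cr2, a complement receptor (4.01 in wild-type), and Ctla4 (4.59 in knock-in). Of 18 genes of plasma cells and antibody secretion, 1 rose and 2 fell in knock-in and 7 rose and 1 fell in wild-type. Mzb1, a chaperone of IgM assembly, led that list with 2.80 in knock-in and 3.88 in wild-type. Fkbp11 and Hsp90b1, both of protein folding, fell by 0.63 and 0.17 in knock-in. Sdc1, a surface proteoglycan of plasma cells that macrophages also carry, fell by 0.72 in wild-type. Of 9 genes of class switching and the germinal centre, 2 rose and 1 fell in knock-in and 4 rose and 2 fell in wild-type, with Mef2b at 3.06 and 2.79 and Rgs13 at 5.36 and 3.01. Those that fell were Ung in knock-in (-0.44) and Apex2 and S1pr2 in wild-type (-0.16 and -0.27). Of 10 receptors of immunoglobulins, 3 rose and 0 fell in knock-in and 4 rose and 1 fell in wild-type, among them Fcmr, the IgM receptor (2.17 and 3.93). Over all genes, 3.35% were called higher and 4.42% lower in knock-in, and 15.4% and 15.9% in wild-type. The 1 of 18 plasma cell genes higher in knock-in lies near that rate. The lists overlap, and many of their genes are expressed in macrophages too. They were chosen with earlier results of these data known.

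Genes of other cells moved in both directions. Of 12 T and NK cell genes, 6 rose in knock-in and 10 in wild-type, and their sum was 3.63 to 71.9 CPM with the IFN-γ label, against 2.56 to 7.44 CPM with the untreated label. Of 9 mast cell and basophil genes 8 were tested, of which 0 rose in knock-in and 8 in wild-type, with sums of 1.61 to 125 CPM with the IFN-γ label, against 1.81 to 12.1 CPM with the untreated label. Of 5 tested neutrophil and eosinophil genes (of 8), 0 rose and 2 fell in knock-in and 0 rose and 1 fell in wild-type, with median log2 changes of -0.74 and -0.05 and sums of 17.4 to 85.2 CPM with the IFN-γ label, against 23.6 to 93.4 CPM with the untreated label. Of 6 dendritic cell genes, 0 rose and 1 fell in knock-in and 3 rose and 0 fell in wild-type, with medians of -0.31 and 0.43 and sums of 2.09 to 160 CPM with the IFN-γ label, against 2.38 to 204 CPM with the untreated label. Of 10 macrophage genes, 0 changed in knock-in, while 4 rose and 2 fell in wild-type. Over all genes, 3.35% were called higher and 4.42% lower in knock-in, and 15.4% and 15.9% in wild-type. Counts near these rates, such as 1 of 5 neutrophil and eosinophil genes lower in wild-type, are not read as a result about these cells. The part that such cells play in the antibody gene changes was not tested.

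Between the genotypes, the IFN-γ label effect itself differed for 2 genes. The difference (knock-in effect minus wild-type effect) was -2.19 ± 0.54 on the log2 scale for Ighd (edgeR adjusted p = 0.00685) and -2.49 ± 0.84 for Ighg2b (edgeR adjusted p = 0.0433), against 5.58% of all genes called lower. The other 7 differences did not pass, from -2.01 for Ighg2c to 0.48 for Jchain. Neither call held when libraries were joined across age labels (edgeR adjusted p = 0.106 for Ighd and 0.135 for Ighg2b), and Ighd held under the other alternatives. The Ighg2b call was also lost on leaving out any of 23 of the 63 libraries, and without the libraries with transcripts of both sexes (edgeR adjusted p = 0.459).

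Knock-in against wild-type within the IFN-γ label changed 1 gene. Ighd had 4.25 to 10.5 CPM in knock-in (median 6.76, n = 15), against 1.46 to 117 CPM in wild-type (median 9.77, n = 18), with a log2 change of -1.28 ± 0.32 (edgeR adjusted p = 0.00365). The knock-in values lay inside the wild-type range. Of all genes 11.7% were called lower, so 1 of the 9 is no more than that rate. The call rested on few libraries. It was lost without the 2 libraries with the highest Cd79a, wild-type old IFN-γ female 2 and wild-type young IFN-γ female 1 (log2 change of Ighd -0.67, edgeR adjusted p = 0.0665), after joining across age labels (-1.17, edgeR adjusted p = 0.396) and without the libraries with transcripts of both sexes (-0.93, edgeR adjusted p = 0.0666).

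Ighd passed within strata in females. In old IFN-γ-labelled females it had 8.21, 9.23, 8.45, 10.5 and 10.2 CPM in knock-in, against 33.4, 88.9, 8.32, 8.54 and 13.1 CPM in wild-type. In young IFN-γ-labelled females it had 7.07 and 5.94 CPM in knock-in, against 117, 11.3 and 25.2 CPM in wild-type. The groups overlapped in old and did not overlap in young females. The log2 changes were -1.71 ± 0.53 and -2.97 ± 0.85 (edgeR adjusted p = 0.0449 and 0.0248), and 3.7% and 3.79% of all genes were called lower. Without the 2 libraries with the highest Cd79a neither passed, and without the 2 libraries against their sex label the call in old females was lost (Ighd log2 change -1.82, edgeR adjusted p = 0.109). Ighg2c was lower in old IFN-γ-labelled females (log2 change -1.63 ± 0.51, edgeR adjusted p = 0.0425), at 0.0894, 0.0904, 0.193, 0.0657 and 0.0932 CPM in knock-in, against 0.72, 0.662, 0, 0.0751 and 0.177 CPM in wild-type, which overlapped. That call, too, was lost without those 2 libraries (edgeR adjusted p = 0.154). In IFN-γ-labelled males 0 of the 9 genes passed in either age label, where 6.64% of all genes were called in old and 0.149% in young males. By unadjusted p under 0.05 there were 2 in old and 0 in young males, a threshold whose rate over all genes is not given. DESeq2 called 0 in each.

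Igkc was the gene whose genotype effect differed by sex with the IFN-γ label, by -2.68 ± 0.63 (female effect minus male effect, log2 scale, edgeR adjusted p = 0.0302), against 0.397% of all genes called lower. In females its log2 change was -1.35 in old and -2.27 in young, and in males 1.08 in old and 0.67 in young, none of which passed on its own. Old knock-in males had 142, 44.4, 11.4, 97 and 14.7 CPM of Igkc, against 21.1, 32.4, 28.2, 32.9 and 32 CPM in old wild-type males. Old knock-in females had 68.6, 67.8, 49.1, 9.5 and 8.79 CPM, against 69.2, 182, 114, 134 and 22.5 CPM in old wild-type females. The knock-in values spanned wider than the wild-type values in males. In females the 2 lowest knock-in values, 9.5 and 8.79 CPM, are those of females 4 and 5, which held little Xist and little Ddx3y. The other 3 lay inside the wild-type range. Without females 4 and 5 the difference of Igkc was -2.38 and not called (edgeR adjusted p = 0.0502). The call was also lost after joining libraries within groups (-2.97, edgeR adjusted p = 0.1001), without the libraries with transcripts of both sexes (-2.09, 0.233), without the 2 highest in Cd79a (-2.08, 0.107) and on leaving out any of 5 of the 33 libraries.

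In untreated-labelled libraries none of the 9 genes passed between knock-in and wild-type (edgeR), where only 0.0497% of all genes were called. By unadjusted p there were 2 under 0.05, and DESeq2 called 2, Ighg2b and Igha (DESeq2 adjusted p = 0.00553 and 0.0313). The rates over all genes by these 2 measures are not given, so neither count is read as a result about the 9. Ighg2b had 0.0406 to 0.469 CPM in knock-in (median 0.151, n = 16), against 0.0101 to 0.168 CPM in wild-type (median 0.0274, n = 14), a log2 change of 2.02 ± 0.74 with an edgeR adjusted p of 0.458. In 92.4% of the pairs of libraries the knock-in library was higher. Ighm was at 19.3 to 47.6 CPM in knock-in and 12.8 to 39.1 CPM in wild-type, a log2 change of 0.47 with an edgeR adjusted p of 0.794.

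The isotype makeup was then compared as the share of each gene in the summed FPKM of the 7 heavy chain genes, per library. Ighm and Ighd make up nearly all of that sum, so their shares move against each other and are not separate results. Heavy chain reads numbered 1291 or more in each library, so that a gene with no read could make up at most 0.232% of the heavy chain reads of the shallowest library (3 reads), by counting error only. Shares were tested by permuting labels within strata (100000 resamples, two-sided, adjusted over 35 tests of shares). Group means are given over libraries, while the tested difference is the mean over strata.

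With the IFN-γ label IgD took a larger and IgG3 a smaller share. Ighd made up 7.30 ± 5.82% with the IFN-γ label (SD, n = 33) and 3.80 ± 1.48% with the untreated label (n = 30, permutation adjusted p = 0.0166). Ighg3 made up 0.341 ± 0.189% with the IFN-γ label, against 0.704 ± 0.521% with the untreated label (permutation adjusted p = 4.67e-04). Ighm made up 91.9 ± 6.1% with the IFN-γ label, against 95.0 ± 2.15% with the untreated label (permutation adjusted p = 0.0436). The Ighd and Ighm differences were no longer called after joining near-identical libraries (permutation adjusted p = 0.0524 and 0.115), while that of Ighg3 was. Without the libraries with transcripts of both sexes they were not called either (permutation adjusted p = 0.205 and 0.317). That run also left out knock-in old females 4 and 5, low in both Xist and Ddx3y, which had the highest Ighd shares (23.7 and 22.8%). The Ighm call was also lost on leaving out any of 29 of the 63 libraries.

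The IFN-γ-labelled libraries spread over a wide range of makeup. Ighd exceeded 10% in 9 of the 33, and in none of the 30 untreated-labelled libraries. It reached 23.7 and 22.8% in knock-in old females 4 and 5, the libraries with little Xist and little Ddx3y. These values rest on 959 of 4044 and 989 of 4329 heavy chain reads (95% Wilson intervals 22.4 to 25.0% and 21.6 to 24.1% of reads). The Ighd share was 14.6 and 11.3% in knock-in old males 3 and 5, and 14.8 and 12.9% in knock-in young males 3 and 4. At the other end, Ighm made up 98.5% in knock-in old male 1, 98.1% in wild-type old female 4 and 98.0% in wild-type old female 3 and in wild-type old male 5.

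The J chain per IgM transcript varied widely among IFN-γ-labelled libraries, around a median log2 ratio of -5.78. The log2 ratio of Jchain over Ighm was -4.44 in knock-in old male 1, -4.28 in knock-in old male 4 and -4.17 and -4.25 in wild-type old males 4 and 5, where Ighd made up 1.23, 2.46, 1.69 and 1.56%. It was -8.58 in knock-in old female 3, where Ighm made up 94.9% and Ighd 3.65%, and -8.07 and -7.69 in the Ighd-rich females 4 and 5 of that group. Other Ighd-rich libraries lay above the median, at -4.51 and -4.96 in knock-in old males 3 and 5 and at -5.08 and -5.26 in knock-in young males 3 and 4. A high ratio was thus found at low and at high Ighd shares. In the same Jchain-rich old male libraries, heavy chain FPKM were high per B cell receptor transcript. The log2 ratio of the heavy chain sum over the mean of Cd79a and Cd79b was 4.01 and 3.67 in knock-in old males 1 and 4 and 4.06 and 3.92 in wild-type old males 4 and 5, against a median of 2.33 over IFN-γ-labelled libraries.

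**Figure D3:**
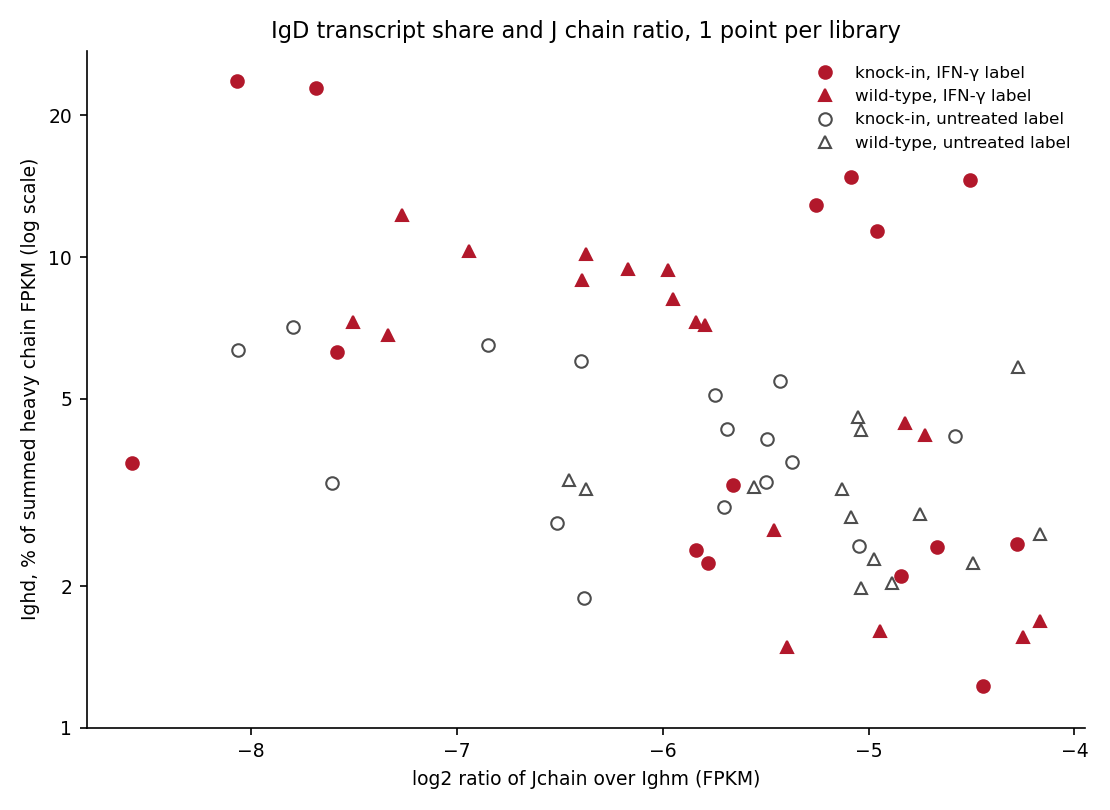
Share of Ighd in the heavy chain FPKM (log axis) against the log2 ratio of Jchain over Ighm, with 1 point per library (circles, knock-in; triangles, wild-type; red, IFN-γ label; open grey, untreated label). IFN-γ-labelled libraries span 1.23 to 23.7% of Ighd and untreated-labelled libraries 1.89 to 7.12%.

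Knock-in untreated-labelled libraries held more IgG2b among their heavy chain transcripts. Ighg2b made up 0.395 ± 0.195% in knock-in (n = 16), against 0.144 ± 0.117% in wild-type (n = 14, permutation adjusted p = 4.67e-04). Ranges were 0.103 to 0.832% in knock-in and 0.0171 to 0.362% in wild-type, which overlapped. Summed over a group, Ighg2b had 35 to 124 reads in knock-in and only 9 to 26 in wild-type. Its level was not called by edgeR, as given above. Ighm made up 94.2 ± 2.36% in knock-in and 95.9 ± 1.44% in wild-type (permutation adjusted p = 0.0436), a call lost on leaving out any of 14 of the 30 libraries. Shares of Ighd (4.34 and 3.18%), Ighg3 (0.817 and 0.574%) and Igha (0.170 and 0.0752%) were not called, with permutation adjusted p of 0.0745, 0.121 and 0.101.

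The same libraries differed in 3 ratios, tested in the same way and adjusted over 15 tests of ratios. The heavy chain sum over Cd79a and Cd79b was 2.21 ± 0.22 in knock-in and 2.71 ± 0.47 in wild-type on the log2 scale (permutation adjusted p = 0.00937). Jchain over Ighm was -6.14 ± 1.02 in knock-in and -5.09 ± 0.67 in wild-type (permutation adjusted p = 0.0121). Igkc over the heavy chain sum was -0.80 ± 0.24 in knock-in and -0.43 ± 0.17 in wild-type (permutation adjusted p = 0.00375). Per heavy chain transcript, knock-in libraries labelled untreated thus held less J chain and less kappa light chain. Untreated-labelled libraries were not checked for near-identical pairs. Knock-in old untreated females 2 and 3 were alike, at -8.06 and -7.79 for Jchain over Ighm, and counted as separate. Lambda transcripts (Iglc1, Iglc2 and Iglc3) made up 10.2 to 36.7% of light chain FPKM in knock-in (median 21.5) and 7.96 to 20.2% in wild-type (median 12.8), which was not tested.

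With the IFN-γ label, Igha was the share called between the genotypes, at 0.257 ± 0.244% in knock-in (n = 15) and 0.0947 ± 0.0944% in wild-type (n = 18, permutation adjusted p = 0.0418). Knock-in old female 3 and knock-in young female 2, which fell into the same set of V-segment use, had the highest shares, 0.784 and 0.826%. The call was lost on leaving out any of 11 of the 33 libraries and after joining near-identical libraries (permutation adjusted p = 0.115) or without those with transcripts of both sexes (0.205). Ighg2b shares (0.235 and 0.117%) were not called, with a permutation adjusted p of 0.101, and no ratio passed between the genotypes with this label, with permutation adjusted p of 0.362 or more.

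By age label, Ighg3 and Ighg2c were the isotypes called. With edgeR, 1 of the 9 genes was called higher with the untreated label and 2 with the IFN-γ label. That is no more often than among all genes (28.1% and 28.6%). With the untreated label, Ighg3 had 0.107 to 1.26 CPM in old-labelled libraries (median 0.302, n = 16), against 0.0276 to 0.306 CPM in young-labelled libraries (median 0.11, n = 14). The labels overlapped, and the log2 change was 1.84 ± 0.62 (edgeR adjusted p = 0.00875), with 28.1% of all genes called higher. Its share was 1.03 ± 0.496% with the old label and 0.327 ± 0.184% with the young label (permutation adjusted p = 3.5e-04, the raw p being the smallest that 100000 resamples can give). Knock-in old untreated females 2 and 3, at 1.75 and 1.79%, counted as separate, and near-identical libraries were not looked for with this label. Ighg2c made up 0.148 ± 0.175% with the old label, against 0.0304 ± 0.0575% with the young label (permutation adjusted p = 0.0347), with no read in 5 of 16 old-labelled and 10 of 14 young-labelled libraries. That call was lost on leaving out any of 5 of the 30 libraries and without those with transcripts of both sexes (0.137), and the edgeR change of Ighg2c, 2.45 ± 1.19, was not called (adjusted p = 0.067).

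**Figure D4:**
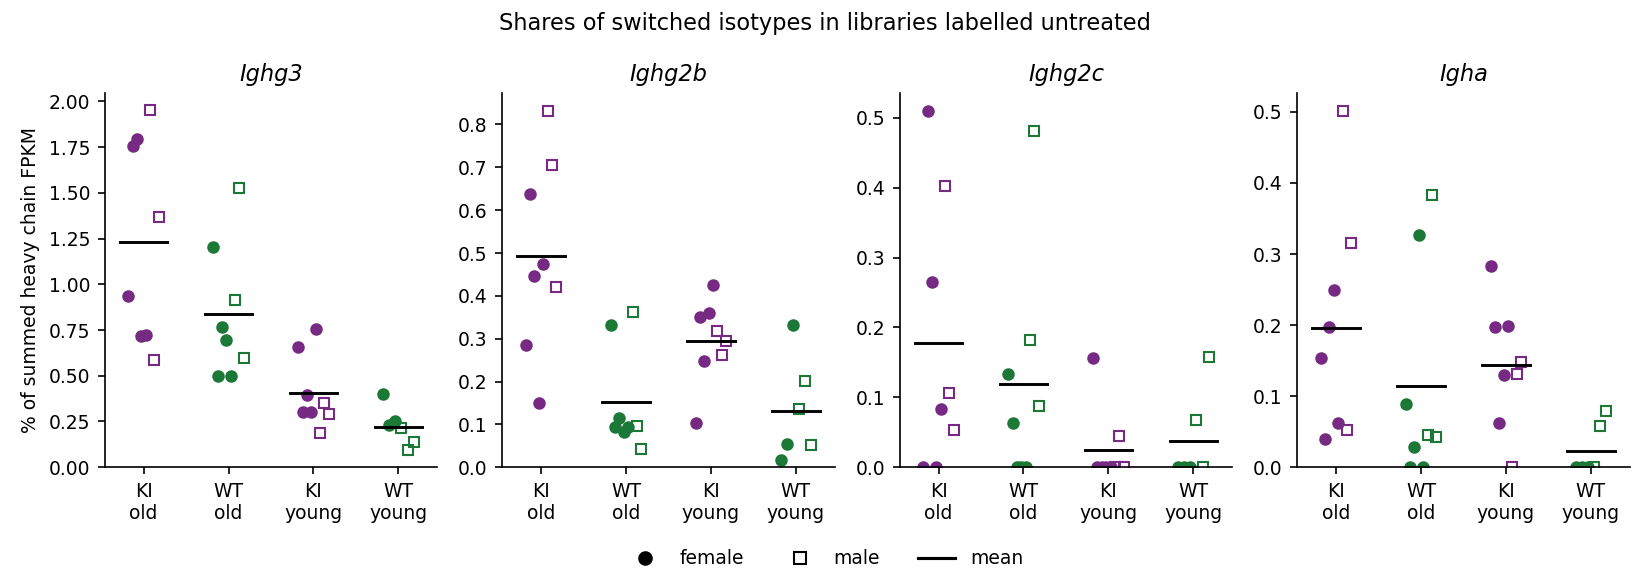
Shares of Ighg3, Ighg2b, Ighg2c and Igha in the heavy chain FPKM of the untreated-labelled libraries, by age label and genotype (KI, knock-in; WT, wild-type), with circles for females, open squares for males and lines for means. Ighg3 is higher with the old label in both genotypes, and Ighg2b is higher in knock-in with both age labels.

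With the IFN-γ label, Ighg3 and Ighg2c rose in old-labelled libraries, by log2 changes of 0.93 ± 0.36 and 1.70 ± 0.56 (edgeR adjusted p = 0.0216 and 0.00639), while 28.6% of all genes were called higher. Ighg3 had 0.164 to 6.79 CPM in old-labelled libraries (median 0.641, n = 20), against 0.0836 to 3.92 CPM in young-labelled libraries (median 0.282, n = 13). Ighg2c had 0 to 0.72 CPM with the old label, against 0 to 0.276 CPM with the young label. Both overlapped. The Ighg3 call was lost without knock-in young IFN-γ female 2 (edgeR adjusted p = 0.0874) and after joining libraries within groups (edgeR adjusted p = 0.0552). As shares, neither was called when labels were permuted within strata (permutation adjusted p = 0.101 and 0.0509). Igkc over the heavy chain sum was -0.29 ± 0.35 with the old label and -0.48 ± 0.39 with the young label (permutation adjusted p = 0.0184). That call was lost without wild-type young IFN-γ female 1 (permutation adjusted p = 0.0509) and after joining libraries within groups (0.138).

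The libraries alike in V-segment use allow the age labels to be compared within sets. Of the 13 sets, 9 held both age labels. The share of Ighg3 was higher with the old label in 9 of the 9 sets, with a median of 0.395% against 0.198%, and the difference ranged from 0.0143 to 0.320 percentage points. Ighd was lower with the old label in 9 of 9 sets, with medians of 3.65% against 6.28%, and Ighm was higher in 9 of 9, with 94.9% against 92.2%. As parts of the same sum, the Ighd and Ighm differences are not separate results. Ighg2c was higher in 8 of 9, with 0.073% against 0.0246%. By flipping signs within the 9 sets, the exact permutation adjusted p was 0.00911 for Ighm, Ighd and Ighg3 and 0.0342 for Ighg2c, over 7 shares. This comparison was added after seeing the data, and without the sets the shares of Ighm (92.0% against 91.8%) and Ighd (7.11% against 7.60%) were not called by age label (permutation adjusted p = 0.968 and 0.951).

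Igkc over the heavy chain sum was higher with the old label in 9 of the 9 sets, by 0.10 to 0.51 on the log2 scale. The heavy chain sum over Cd79a and Cd79b was higher in 8 of 9, by a median of 0.30 (exact permutation adjusted p = 0.0117 over 3 ratios). Gbp2 separated the same libraries by age label without overlap, as given above, and its relation to the isotype shares was not tested.

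**Figure D5:**
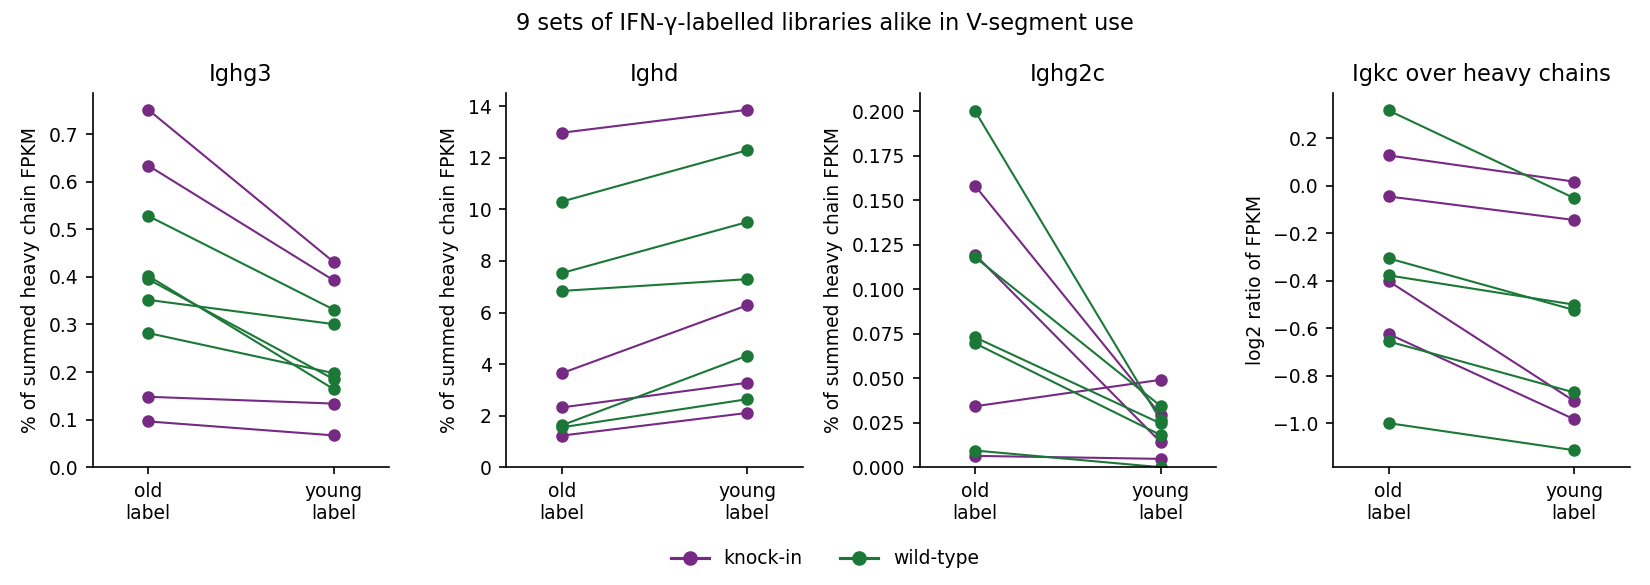
Shares of Ighg3, Ighd and Ighg2c in the heavy chain FPKM and the log2 ratio of Igkc over the heavy chain sum in 9 sets of IFN-γ-labelled libraries alike in V-segment use; each line joins the mean of a set's old-labelled libraries to that of its young-labelled libraries (purple, knock-in; green, wild-type). The line for Ighg3 falls and that for Ighd climbs toward the young label in 9 of 9 sets, and Ighg2c is higher with the old label in 8.

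Sex was compared last. With the IFN-γ label, 6 of the 9 genes were higher in females, against 12.5% of all genes. Ighm had 33 to 1469 CPM in females (median 316, n = 15), against 38.2 to 452 CPM in males (median 93, n = 18), a log2 change of 1.37 ± 0.33 (edgeR adjusted p = 0.00155). Igha had 0.0725 to 2.94 CPM in females (median 0.578), against 0.0102 to 0.504 CPM in males (median 0.163), with the largest change of the 9, 2.45 ± 0.36 (edgeR adjusted p = 8.17e-07). Ighd, Ighg2b, Ighg2c and Ighg3 changed by 1.38, 2.14, 2.00 and 2.03, and Igkc (0.70), Jchain (0.17) and Ighg1 (0.17) did not pass. All 9 overlapped between the sexes. Of the 6 calls, 3 held after joining across age labels (Igha, Ighg2b and Ighg2c) and 2 without the libraries that held transcripts of both sexes (Ighm and Ighg3). Ighg2c was lost without knock-in young IFN-γ female 1 or wild-type young IFN-γ female 1, and Ighg3 without knock-in young IFN-γ female 1. With the untreated label, 0 of the 9 passed, of which 0 had an unadjusted p under 0.05 by edgeR and DESeq2 called 0, while 1.53% of all genes were called.

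Of genes outside the immunoglobulin loci, those most like Ighm in level over the 63 libraries were Ly6d, a surface protein of B cell progenitors and B cells (Pearson r = 0.970), Mzb1 (0.956) and Ctla4 (0.945), on log2(CPM + 0.5). Those most like Jchain were the same 3, with r of 0.762 to 0.774. Those most like Igha were Ackr2, a scavenger receptor for chemokines (0.940), Gcm2 (0.930) and Rdh12 (0.921). These correlations share the contrast between IFN-γ and untreated labels and the joined libraries. Among the 9 genes, Ighm followed Igkc most closely (r = 0.980) and Ighg1 least (0.448), over the same libraries. Ighg1 never exceeded 0.341 CPM, under the added 0.5, and had no read in 36 libraries, so its r cannot be read apart from that floor. Most Igha values lay under 0.5 CPM too, so its r rests mainly on the libraries above it.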

How the data were processed

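RNA of 63 libraries of mouse peritoneal macrophages was sequenced with a strand-directional kit, and poly(A) RNA was used per the labels. The authors' deposited tables hold counts of reads per gene (whole numbers, 73.6 to 106.6 M per library) and FPKM, which the authors scaled for length and depth. Per the submitters' processing notes STAR 2.7.9a, DESeq2 1.40.2 and GRCm39 were used. The counter is not given in the sources used here.

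Groups were taken from the labels. Counts of 22147 genes that passed filterByExpr (99.992% of counts) were fitted in 1 model of 16 groups with edgeR 4.0.16 (R 4.3.3), TMM factors of 0.886 to 1.233 and the quasi-likelihood test, adjusted by Benjamini-Hochberg within each comparison and called at 0.05. CPM values use these factors unless stated. Comparisons average the strata of the other factors with equal weight, and SE is that of the log2 change. Shares and log2 ratios were computed from FPKM with Python 3.11.15, numpy 2.4.6, scipy 1.17.1 and pandas 2.3.3, and figures with matplotlib 3.10.9. Permutation tests drew 100000 resamples. Wilson intervals and limits of a count of 0 (3 reads) cover counting error only. The fits and permutations were tested on simulated data. Alternatives were DESeq2 1.42.0, other size factors, no filter, a replicate block, joined or left-out libraries, and shares of counts.

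Gene symbols came from a GRCm38 annotation, matched by Ensembl identifier for 52073 of 56748 genes, and sequences from GENCODE M21 transcripts. No coordinates were used. All 9 genes are named, with up to 4 called genes of the smallest p in each list and the 3 genes most like each of Ighm, Igha and Jchain. The 9 genes and the lists were chosen with earlier results of these data known.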

Additional observations from a re-analysis of the deposited data

Results flagged for a closer look

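Of 72 combinations of a gene and a group with 4 or more libraries, 8 held a library that stood apart from the rest of its group by its gap to the nearest value. The limit used holds for normally distributed values, which these low counts are not, so no rate by chance is known. Values are CPM. Wild-type old untreated female 1 had 1.65 for Ighd, against 0.5 to 0.581 in the rest of its group, and 0.168 for Ighg2b, against 0.0208 to 0.0418. Knock-in old IFN-γ female 3 had 1.58 for Ighg2b, against 0.318 to 0.572, and 0.193 for Ighg2c, against 0.0657 to 0.0932. Knock-in old IFN-γ male 1 had 0.267 for Ighg2b, against 0.133 to 0.149, and wild-type old IFN-γ female 2 had 6.79 for Ighg3, against 0.885 to 2.53. Wild-type old untreated female 4 had 0.0104 for Ighg1 and knock-in young untreated female 1 had 0.0305 for Ighg2c, where the rest of each group had no read. In such groups any library with a read is flagged by construction.

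Effects that differed between groups by a test of the difference were those of the IFN-γ label between knock-in and wild-type for Ighd (-2.19, edgeR adjusted p = 0.00685) and Ighg2b (-2.49, edgeR adjusted p = 0.0433), and that of genotype between females and males with the IFN-γ label for Igkc (-2.68, edgeR adjusted p = 0.0302), all on the log2 scale. The last was not called without the 2 libraries against their sex label (-2.38, edgeR adjusted p = 0.0502).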

How the results depend on the processing

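The IFN-γ label gave 6 to 9 called genes of 9 in wild-type and 5 to 6 in knock-in under every alternative run. The IFN-γ label by genotype gave 1 called gene in place of 2 with no filter, with libraries joined within groups, without the libraries against their sex label, without those with transcripts of both sexes and without the 2 highest in Cd79a, 0 with libraries joined across age labels, and 1 to 3 on leaving out 1 library. Genotype with the IFN-γ label gave 1 in the main fit, 0 joined across age labels and 1 to 3 on leaving out 1 library. With the untreated label it gave 0, and 2 by DESeq2. Rates over all genes are not given for the DESeq2 counts here. The old label gave 2 with the IFN-γ label, 1 with libraries joined, 4 without the libraries against their sex label or with transcripts of both sexes, and 1 to 4 on leaving out 1 library. With the untreated label it gave 1, 3 by DESeq2, 2 without the 2 highest in Cd79a and 1 to 2 on leaving out 1 library. Sex with the IFN-γ label gave 6, 3 joined across age labels and 2 without transcripts of both sexes. Genotype in old IFN-γ-labelled females gave 2, 1 by DESeq2, 0 with no filter, joined, or without the libraries against their sex label, with transcripts of both sexes or highest in Cd79a, and 0 to 2 on leaving out 1 library. Genotype by sex with the IFN-γ label, put to alternatives after seeing the data, gave 1, 2 by DESeq2, 0 joined within groups or across age labels or without the libraries against their sex label, with transcripts of both sexes or highest in Cd79a, and 0 to 3 on leaving out 1 library. In young females genotype gave 1, 3 by DESeq2, 0 without transcripts of both sexes or the highest in Cd79a, and 0 to 2 on leaving out 1 library.

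Replicate numbers were not taken to pair libraries in the main tests. Same-numbered deviations from group means correlated above 0.1 in 16 of 26 pairs across treatment labels and 12 of 26 across genotypes. The counts were 18 of 26 across age labels and 16 of 25 across sexes. Different-numbered pairs were not set beside them, so these counts cannot decide whether libraries are paired. Across age labels some IFN-γ-labelled libraries of the same number were also alike in V-segment use, such as wild-type males 1 to 5. Libraries of different numbers were alike too, and the highest r, 0.995, joined wild-type old female 3 and young female 2. With the replicate number as a block, the counts were 2 for genotype with the IFN-γ label, 4 for age with it, 2 for sex with it, and 0 for genotype in old and in young females and for genotype by sex. The block gave share differences in percentage points of -3.43 (Ighm, IFN-γ label), 0.170 (Igha, genotype, IFN-γ), -2.10 (Ighm, genotype, untreated) and 0.144 (Ighg2c, age, untreated), and a log2 difference of 0.16 (Igkc over heavy chains, age, IFN-γ), none called. It gave 0.0677 (Ighg2c) and 0.206 (Ighg3) for age with the IFN-γ label, both called.

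Of the shares, the Ighm difference by IFN-γ label lost its call from counts (-2.94), without the libraries against their sex label (-1.996), joined (-2.41), without transcripts of both sexes (-1.50) and without the highest in Cd79a (-3.02), and ran from -3.56 to -2.64 on leaving out 1 library. Ighd by IFN-γ label lost it joined (2.84) and without transcripts of both sexes (1.94). Igha by genotype with the IFN-γ label lost it joined (0.188), without transcripts of both sexes (0.239), without the highest in Cd79a (0.184) and at the low end of 0.105 to 0.273 on leaving out 1 library. Ighm by genotype with the untreated label lost it in the runs with libraries joined and without the highest in Cd79a, where its libraries and its value (-1.84) were as before and the adjustment over the other tests alone differed, and at the upper end of -2.14 to -1.56 on leaving out 1 library. Ighg2c by age with the untreated label lost it without transcripts of both sexes (0.130). Igkc over heavy chains by age with the IFN-γ label lost it joined (0.25), without transcripts of both sexes (0.21) and at the low end of 0.22 to 0.29 on leaving out 1 library. Within V-segment sets, age with the IFN-γ label gained calls for Ighm (1.32), Ighd (-1.51), Ighg2c (0.0653), Ighg3 (0.154) and heavy chains over Cd79 (0.34). On leaving out 1 library Ighg2c ran from 0.0695 to 0.0878 and Ighg3 from 0.110 to 0.201, called for Ighg2c without any of 10 libraries and for Ighg3 without 1. Ighm ran from -0.528 to 1.16 and Ighd from -1.26 to 0.334, none called, with the direction turned by leaving out any of 16 libraries for Ighm and of 9 for Ighd. The cause was not tested for any of these.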
